A study of Homo sapiens with 12 samples.

Results

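The collagens measured here are the genes whose symbol has the form COL, a number, A and a number, and which therefore encode an alpha chain of a numbered collagen type. Of the 25049 genes in the count table, 36 had such a symbol, and another 8 of 44 listed collagen symbols are not analysed here. Counts were high enough for a test in 32 of the 36. The samples were 12 polyadenylated RNA-seq libraries, 3 in each of 4 groups, from MDA-MB-231b, a bone-tropic derivative of the human triple-negative breast cancer line MDA-MB-231. That derivative had been passed through the tibia of athymic nude mice, recovered from bone marrow, injected into the heart and recovered from bone marrow again. A GLI2 knockout (KO) was made with lentiviral CRISPR-Cas9 and an sgRNA to GLI2, with a non-targeted sgRNA in the control arm, and the sample labels call the other genotype WT without saying which sgRNA it carried. GLI2 is a transcription factor of the Hedgehog pathway, and the series asks how it bears on the response to paclitaxel, a taxane that stabilises microtubules. The groups were WT cells in DMSO, WT cells in 50 nM paclitaxel, KO cells in DMSO and KO cells in 50 nM paclitaxel, each kept for 2 days in complete medium. Whether the KO cells were 1 clone or a pool, and whether the replicates came from separate cultures, is unknown here. A p-value therefore sets a difference between groups only against the spread among these libraries, and that spread may be technical. The loss of GLI2 and any other difference between these KO and WT cells cannot be told apart.

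Collagens are secreted or membrane-bound proteins in which 3 alpha chains wind into a triple helix, from chains of 1 gene or of partner genes. Fibrillar collagens build the fibres of bone, tendon and stroma, fibril-associated collagens coat those fibres, type IV collagens form the network of basement membranes, and transmembrane collagens sit in the plasma membrane. Carcinoma cells are known mainly for contact with basement membrane and stromal collagen, most of which is made by fibroblasts, while in bone the main organic component is type I collagen from osteoblasts.

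Libraries held between 83230948 and 109018776 counts. At that depth 3 counts corresponded to 0.0272 to 0.0385 CPM, the unit of counts relative to the library total times edgeR's TMM scaling factor. GLI2 itself was at 10.8 ± 0.536 CPM in DMSO and 5.68 ± 0.722 in paclitaxel in WT cells, and at 9.2 ± 0.925 and 4.16 ± 0.211 in KO cells (SD, n = 3). A count over the whole gene does not read the edited site. The KO difference of GLI2 in DMSO, a log2 fold change of -0.23 ± 0.08 (SE, edgeR adjusted p = 0.0253), had an adjusted p of 0.0577, 0.183 and 0.11 without KO DMSO replicate 1, KO DMSO replicate 2 and WT DMSO replicate 2 in turn. KO DMSO replicate 3 stood furthest from the other libraries of its group, with an SD of 0.17 in log2 level against 0.0891 to 0.128 for the other 11 libraries. Its collagen level was the highest of the 3 for 20 of the 32 tested genes. All 5 listed markers of a mesenchymal breast cancer line were detected, and their summed level was 4670 to 4750 CPM in WT DMSO, 3710 to 3720 in WT paclitaxel, 4440 to 4780 in KO DMSO and 3280 to 3520 in KO paclitaxel. In each genotype 4 of the 5 were lower and CD44 was higher with paclitaxel. Luminal breast markers (6 of 7 in the table, none at 0) summed to 511 to 537, 642 to 667, 564 to 609 and 675 to 704 CPM in the same order, and one of them, PGR, had 1, 2, 640 and 243 counts. The part of these markers in the collagen differences was not tested. Fibroblast and osteoblast markers, of which 5 of 10 listed were in the table, summed to 3.86 to 4.79 CPM in DMSO and 7.72 to 8.26 in paclitaxel in WT cells. In KO cells they summed to 8.61 to 12.8 in DMSO (POSTN at 0 counts) and 17.4 to 19.9 in paclitaxel. Most of each sum was PDGFRB, at 3.73 to 4.76 CPM in WT cells in DMSO and 7.35 to 7.81 in paclitaxel. Its level in KO cells was 8.54 to 12.7 in DMSO and 16.6 to 19.2 in paclitaxel. Endothelial markers (4 of 4) summed to at most 4.28 CPM and haematopoietic markers (4 of 6) to at most 2.63 CPM in any library. Both sums were higher with paclitaxel than in DMSO in each genotype.

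Among the collagens, 22 genes averaged at least 1 CPM in 1 group or more. Levels are given as CPM scaled with edgeR's TMM factors, as mean ± SD of 3 libraries, and genes are compared with each other only per kilobase of exon. Per kilobase, COL13A1 was first in every group, with 39.4 CPM per kb in WT cells in DMSO, 24.8 in WT cells in paclitaxel, 31.9 in KO cells in DMSO and 18 in KO cells in paclitaxel. In WT cells in DMSO it was followed by COL7A1 (10.7 CPM per kb), COL8A1 (7.85), COL6A2 (7.84), COL6A1 (6.99) and COL4A2 (5.98), with overlapping replicates between COL8A1 and COL6A2 and between COL6A2 and COL6A1. COL18A1 (3.99) and COL12A1 (3.94) also overlapped there, and COL5A1 (3.54), COL4A1 (2.79), COL27A1 (1.87) and COL1A1 (0.814), the main chain of bone collagen, came lower. In KO cells in DMSO COL13A1 was followed by COL12A1 (11.6 CPM per kb), COL6A1 (11.4) and COL8A1 (11.1), where the replicates of COL6A1 overlapped those of the other two.

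**Figure D1:**
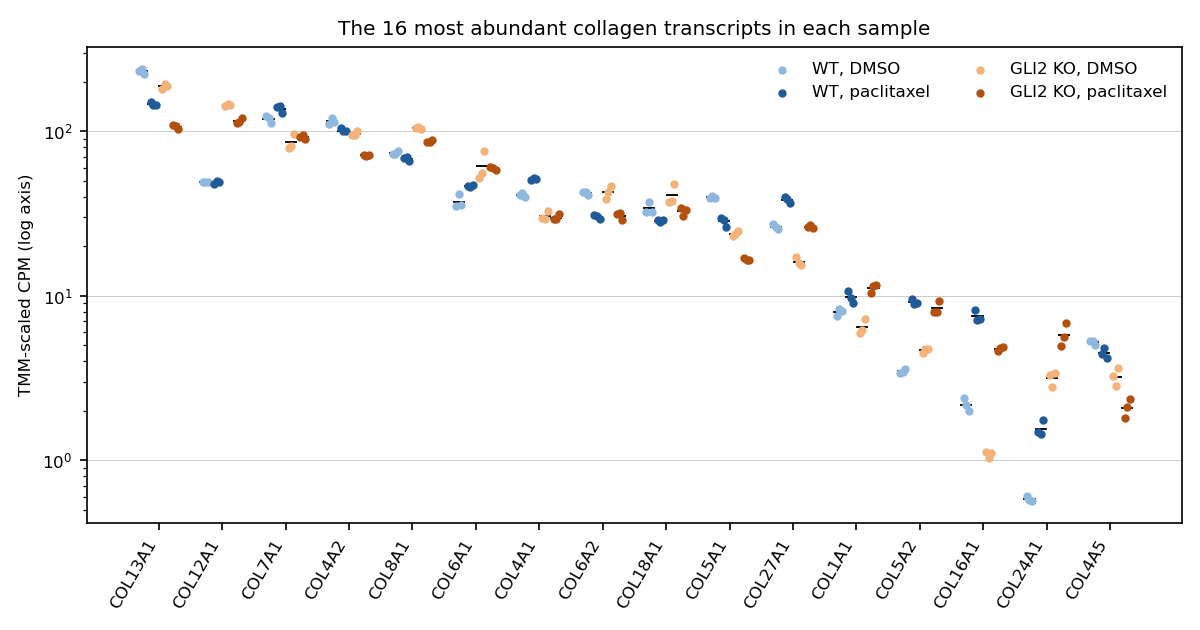
TMM-scaled CPM of the 16 most abundant collagen transcripts in each of the 12 samples (log axis), with a point for each library and a line at each group mean. Levels are not per kilobase, so each gene is read across the groups, not against other genes. COL12A1 has means of 49.1 and 48.8 CPM in the WT groups and 145 and 115 CPM in the KO groups.

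As a family, the collagens took 0.0797% ± 0.00197 of all counts in WT cells in DMSO, 0.0825% ± 0.00216 in WT cells in paclitaxel, 0.0808% ± 0.00437 in KO cells in DMSO and 0.0762% ± 0.000961 in KO cells in paclitaxel (SD, n = 3). On the TMM scale the summed level was 837 ± 24.5, 777 ± 18.4, 864 ± 39.0 and 721 ± 3.06 CPM in the same order. The KO groups therefore had a lower sum in paclitaxel on both scales, while the direction in WT cells was higher as a share of counts and lower on the TMM scale. What made up the sum differed more than the sum. COL13A1 was 27.7% of collagen counts in WT cells in DMSO and 14.7% in KO cells in paclitaxel. COL12A1 held 5.87% and 6.29% in WT cells (DMSO, paclitaxel) and 16.8% and 15.9% in KO cells. COL4A2 went from 13.8% in WT cells in DMSO to 9.91% in KO cells in paclitaxel, and COL6A1 from 4.46% to 8.29%.

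Over all 32 tested genes, paclitaxel moved most collagens in both genotypes, and more of them up than down. In WT cells 19 of the 32 tested genes rose and 7 fell at an edgeR adjusted p below 0.05, beside 34.6% of all tested genes higher and 32.1% lower; the collagens' shares were 59.4% and 21.9%. In KO cells 18 rose and 9 fell (56.2% and 28.1%), beside 33.0% and 32.2% of all tested genes. The median log2 fold change of the 32 was 0.67 in WT and 0.75 in KO cells, against 0.03 and 0.02 over all tested genes. That median includes 10 genes averaging below 1 CPM. For the 22 at or above 1 CPM it was 0.29 in WT and -0.03 in KO cells. Over all tested genes at that level it was -0.11 in each genotype. In bulk RNA, fewer cells of a type and less RNA per cell cannot be told apart.

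The filter on low counts bears on these numbers, since a gene can pass it through its paclitaxel libraries alone and can then hardly fall; COL2A1, with 1, 75, 7 and 54 counts in WT DMSO, WT paclitaxel, KO DMSO and KO paclitaxel, is such a gene. Nothing is therefore read from the 10 tested collagens with a mean below 1 CPM as a set. Of the 22 at or above 1 CPM, 11 rose and 7 fell in WT cells (50% and 31.8%, beside 25.3% and 48.8% of all genes at that level), and 9 rose and 9 fell in KO cells (40.9% each, beside 25.4% and 48.7%). With upper-quartile factors or plain library totals in place of TMM, the median of all tested genes in WT cells moved from 0.03 to 0.17 and 0.19, and 3 collagens rather than 7 were lower. COL8A1, COL4A2, COL18A1 and COL4A5 no longer passed.

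By gene, 17 collagens rose in both genotypes, 7 fell in both (COL13A1, COL18A1, COL4A2, COL4A5, COL5A1, COL6A2 and COL8A1), and none passed in opposite directions. The risers in both were COL1A1, COL2A1, COL3A1, COL4A3, COL5A2, COL6A3, COL9A3, COL11A2, COL15A1, COL16A1, COL17A1, COL20A1, COL21A1, COL24A1, COL26A1, COL27A1 and COL28A1. Another 2, COL4A1 and COL7A1, passed as higher in WT cells alone, COL19A1 as higher and COL12A1 and COL4A4 as lower in KO cells alone, and COL4A6, COL6A1 and COL9A2 in neither. A pass in one genotype only does not show a difference between them, which was tested separately. By class, 7 of 8 tested fibrillar genes rose and 1 fell in each genotype, and of the 7 fibril-associated genes 4 rose in WT cells, while 5 rose and 1 fell in KO cells. The 6 basement membrane genes were divided, with 2 higher and 2 lower in WT cells and 1 higher and 3 lower in KO cells. These class counts include genes averaging below 1 CPM: COL2A1, COL3A1, COL4A3, COL4A6, COL9A3, COL19A1 and COL21A1. Of all tested genes below that level, 50.4% rose and 3.77% fell in WT cells, and 45.8% and 4.42% in KO cells. Nothing is therefore read from differences between classes.

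**Figure D2:**
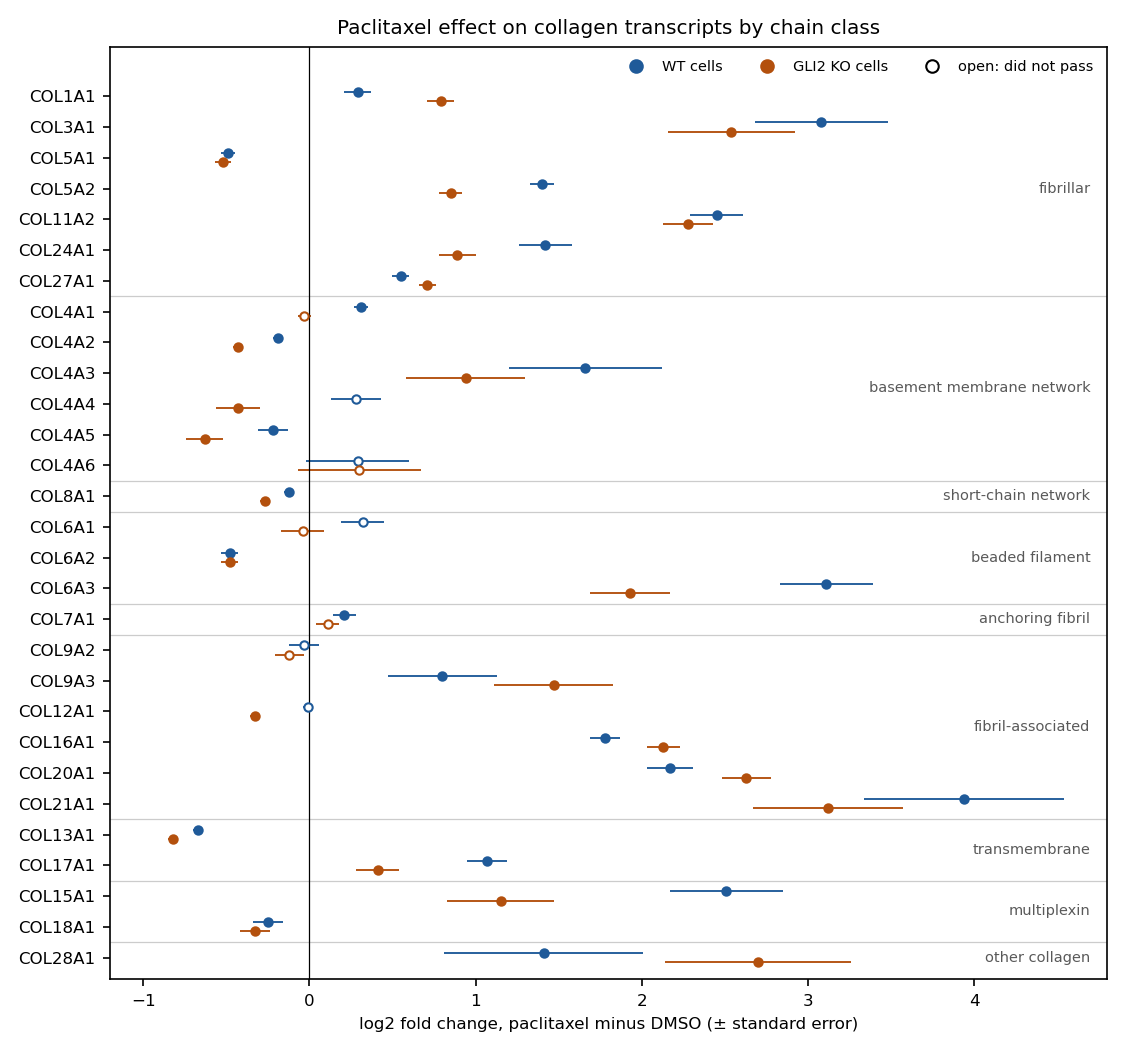
Paclitaxel effect (log2 fold change, paclitaxel minus DMSO, ± SE) on 29 tested collagens grouped by class, with WT cells in blue and KO cells in orange; open points did not pass an edgeR adjusted p of 0.05. Values run from -0.82 for COL13A1 in KO cells to 3.94 for COL21A1 in WT cells, and COL2A1, COL19A1 and COL26A1 are left out for their low counts in DMSO.

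The genotype comparison divided the collagens evenly. In DMSO, 12 of the 32 were higher and 10 lower in KO than in WT cells, beside 22.0% and 19.6% of all tested genes; the collagens' shares were 37.5% and 31.2%. In paclitaxel 9 were higher and 10 lower (28.1% and 31.2%, beside 23.4% and 22.2%). Those higher in both media were COL4A4, COL8A1, COL9A2, COL11A2, COL12A1, COL19A1 and COL24A1, and those lower in both were COL4A1, COL4A2, COL4A5, COL5A1, COL7A1, COL13A1, COL16A1 and COL27A1. These comparisons share their samples with the paclitaxel contrasts. The paclitaxel effect itself differed between genotypes for 9 collagens. The fold change in KO cells was higher for COL1A1 and lower for COL4A1, COL4A2, COL4A4, COL5A2, COL8A1, COL12A1, COL13A1 and COL17A1. That is 3.12% and 25% of the 32, beside 6.56% and 6.93% of all tested genes. Without WT paclitaxel replicate 1 the number with a lower fold change was 5, with COL4A4, COL8A1 and COL13A1 no longer passing.

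Among transmembrane collagens, COL13A1 (chr10:69801867-69964275, plus strand, GRCh38, GENCODE 29) encodes a chain found at cell-matrix adhesions and at the neuromuscular junction. It had 233, 240 and 222 CPM in WT cells in DMSO and 150, 145 and 144 in paclitaxel. KO cells had 181, 194 and 188 in DMSO and 109, 107 and 103 in paclitaxel. The 4 groups did not overlap, and the level was lower with paclitaxel and lower in KO than in WT cells. Paclitaxel gave a log2 fold change of -0.67 ± 0.03 in WT cells (SE, edgeR adjusted p = 1.54e-14) and -0.82 ± 0.03 in KO cells (edgeR adjusted p = 3.69e-16). KO cells differed from WT cells by -0.31 ± 0.03 in DMSO (edgeR adjusted p = 3.34e-08) and -0.46 ± 0.03 in paclitaxel (edgeR adjusted p = 2.89e-11). The paclitaxel effect was lower in KO cells by -0.16 ± 0.05 (edgeR adjusted p = 0.0306). In the 12 fits without 1 library this difference ran from -0.18 to -0.13 with adjusted p from 0.0168 to 0.105. It was above 0.05 without KO DMSO replicate 2, KO paclitaxel replicates 2 and 3, WT DMSO replicate 3 or WT paclitaxel replicate 1.

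COL17A1 (chr10:104031286-104085957, minus strand), the hemidesmosome collagen of epithelia, went the other way with paclitaxel. It had 2.12, 1.6 and 1.6 CPM in WT cells in DMSO and 3.21, 3.96 and 4.09 in paclitaxel. KO cells had 1.72, 1.87 and 1.58 in DMSO and 2.36, 2.27 and 2.22 in paclitaxel. The DMSO groups overlapped, and in paclitaxel every WT library was above every KO library. It rose with paclitaxel by 1.07 ± 0.12 in WT cells (edgeR adjusted p = 2.17e-08) and by 0.41 ± 0.13 in KO cells (edgeR adjusted p = 0.00671), a difference of -0.66 ± 0.17 (edgeR adjusted p = 0.0121). In paclitaxel KO cells had -0.72 ± 0.11 relative to WT cells (edgeR adjusted p = 1.15e-05). COL25A1, the third transmembrane collagen in the table, had 4, 18, 17 and 39 counts summed over the 3 libraries of WT DMSO, WT paclitaxel, KO DMSO and KO paclitaxel and was not tested.

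The stretches just before the starts of COL13A1 and COL17A1 are shown because these transmembrane genes were 2 of the 4 collagens with a TATAAA motif in their promoter window and moved in opposite directions with paclitaxel. Each is taken from the RefSeq promoter table (GRCh38.p14), ends before the first exon of both RefSeq and GENCODE 29, and is read 5′ to 3′ on the gene's strand. They cover chr10:69801656-69801866 (plus strand, 211 bases, 66.4% G or C) for COL13A1 and chr10:104085958-104086130 (minus strand, 173 bases, 40.5% G or C) for COL17A1, and the capitals mark TATAAA and, in COL17A1, a CCAAT motif of the other strand read as ATTGG:
COL13A1 upstream: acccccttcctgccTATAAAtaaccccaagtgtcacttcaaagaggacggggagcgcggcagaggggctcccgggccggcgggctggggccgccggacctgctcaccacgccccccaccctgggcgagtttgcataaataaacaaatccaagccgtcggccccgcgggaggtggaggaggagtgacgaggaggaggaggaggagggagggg
COL17A1 upstream: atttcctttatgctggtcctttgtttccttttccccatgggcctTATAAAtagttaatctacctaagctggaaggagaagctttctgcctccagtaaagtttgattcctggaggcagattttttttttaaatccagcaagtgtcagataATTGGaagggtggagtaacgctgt

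In the fibrillar class, partner chains of 1 collagen type moved in opposite directions. Type V collagen, which sets the diameter of type I fibrils, is built from COL5A1 and COL5A2 chains. COL5A1 (chr9:134641774-134844843, plus strand) had 39.1, 40.5 and 39.3 CPM in WT cells in DMSO and 29.6, 29 and 26.1 in paclitaxel. KO cells had 23.0, 23.6 and 24.6 in DMSO and 17.0, 16.4 and 16.5 in paclitaxel, with no overlap between any groups. COL5A2 (chr2:189031896-189225312, minus strand) had 3.42, 3.46 and 3.58, then 9.51, 8.98 and 9.05, then 4.47, 4.74 and 4.75, and then 7.93, 7.93 and 9.28 CPM in the same order. COL5A1 was thus lower with paclitaxel and lower in KO cells. COL5A2 was higher with paclitaxel in both genotypes, and higher in KO than in WT cells in DMSO.

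For COL5A1 the paclitaxel log2 fold change was -0.49 ± 0.04 in WT cells (edgeR adjusted p = 5.44e-10) and -0.52 ± 0.05 in KO cells (edgeR adjusted p = 5.67e-10). The KO difference was -0.74 ± 0.04 in DMSO and -0.77 ± 0.05 in paclitaxel (edgeR adjusted p = 5.96e-13 and 6.2e-13). COL5A2 rose 2.63-fold in WT cells (log2 1.40 ± 0.07, edgeR adjusted p = 4.81e-14) and 1.8-fold in KO cells (0.85 ± 0.07, edgeR adjusted p = 2.47e-10). That rise was smaller in KO cells by -0.55 ± 0.11 (edgeR adjusted p = 0.00102). COL5A2 was higher in KO cells in DMSO by 0.42 ± 0.08 (edgeR adjusted p = 0.000117). In paclitaxel the groups overlapped with -0.13 ± 0.07 (edgeR adjusted p = 0.131); without KO paclitaxel replicate 3 the latter was -0.21 (adjusted p = 0.0187). Counts of COL5A2 per count of COL5A1 were 0.0875, 0.0854 and 0.091 in WT cells in DMSO and 0.321, 0.31 and 0.346 in paclitaxel, and in KO cells 0.195, 0.201 and 0.193 in DMSO and 0.467, 0.485 and 0.564 in paclitaxel. The ratio thus rose 3.7-fold in WT and 2.58-fold in KO cells, free of any choice of scaling factor since both counts come from the same library.

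COL1A1, the major chain of type I collagen, had 7.5, 8.36 and 8.12 CPM in WT cells in DMSO and 10.7, 9.68 and 8.99 in paclitaxel. KO cells had 5.92, 6.23 and 7.19 in DMSO and 10.4, 11.4 and 11.7 in paclitaxel. It was lowest in KO cells in DMSO, and the paclitaxel groups of the 2 genotypes overlapped. Paclitaxel raised it by 0.29 ± 0.08 in WT cells (edgeR adjusted p = 0.00145) and by 0.79 ± 0.08 in KO cells (edgeR adjusted p = 2.02e-09), a difference of 0.50 ± 0.11 (edgeR adjusted p = 0.00289). The KO difference was -0.31 ± 0.08 in DMSO (edgeR adjusted p = 0.00266) and 0.19 ± 0.07 in paclitaxel (edgeR adjusted p = 0.0342). The latter ran from 0.13 to 0.26 without 1 library in turn, with adjusted p from 0.0111 to 0.193. It was above 0.05 without KO paclitaxel replicate 2 or 3 or WT paclitaxel replicate 2 or 3, and also with upper-quartile factors (0.16, adjusted p = 0.0901), library totals (0.19, 0.0512) and a minimum count of 50 (0.18, 0.0536).

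COL27A1 and COL24A1 belong to the branch of fibrillar collagens expressed in developing cartilage and bone, and they differed between KO and WT cells in opposite directions. COL27A1 had 27.2, 26.1 and 25.3 CPM in WT cells in DMSO and 39.8, 39.0 and 36.4 in paclitaxel. KO cells had 17.1, 15.8 and 15.3 in DMSO and 26.1, 26.9 and 25.7 in paclitaxel. Its level in KO cells in paclitaxel overlapped that in WT cells in DMSO. It rose with paclitaxel by 0.55 ± 0.05 in WT and 0.71 ± 0.05 in KO cells (edgeR adjusted p = 9.72e-11 and 2.65e-12). It was lower in KO cells by -0.71 ± 0.05 in DMSO and -0.55 ± 0.04 in paclitaxel (edgeR adjusted p = 4.58e-12 and 1.87e-10).

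COL24A1 (chr1:85729233-86156943, minus strand) had 0.608, 0.574 and 0.565 CPM in WT cells in DMSO and 1.49, 1.44 and 1.76 in paclitaxel. KO cells had 3.29, 2.81 and 3.38 in DMSO and 4.99, 5.65 and 6.84 in paclitaxel. No groups overlapped, and every KO library was above every WT library. It was higher in KO than in WT cells, 5.4-fold in DMSO (log2 2.43 ± 0.15, edgeR adjusted p = 5.36e-13) and 3.72-fold in paclitaxel (1.90 ± 0.12, edgeR adjusted p = 1.13e-12). Paclitaxel raised it 2.68-fold in WT cells (1.42 ± 0.16, edgeR adjusted p = 2.3e-08) and 1.85-fold in KO cells (0.89 ± 0.11, edgeR adjusted p = 1.16e-07). The difference of -0.54 ± 0.2 did not pass (edgeR adjusted p = 0.0701), and reached adjusted p = 0.0443 without KO DMSO replicate 2 and 0.0163 without KO paclitaxel replicate 3.

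Of the remaining fibrillar genes, COL2A1, COL3A1 and COL11A2 passed as higher with paclitaxel in both genotypes. COL11A2, a chain of the type XI collagen of cartilage, averaged 0.409 ± 0.0684 CPM in WT cells in DMSO, 2.22 ± 0.0346 in WT cells in paclitaxel, 0.626 ± 0.101 in KO cells in DMSO and 3.03 ± 0.461 in KO cells in paclitaxel (SD, n = 3). It rose 5.46-fold in WT and 4.85-fold in KO cells (log2 2.45 ± 0.16 and 2.28 ± 0.15, edgeR adjusted p = 2.45e-12 and 1.57e-12). It was higher in KO cells by 0.45 ± 0.12 in paclitaxel (edgeR adjusted p = 0.004) and by 0.62 ± 0.2 in DMSO (edgeR adjusted p = 0.014). The DMSO value was 0.53 (adjusted p = 0.0674) without KO DMSO replicate 3 and 0.49 (0.0882) without WT DMSO replicate 1. COL3A1, which shares fibrils with type I collagen, had 13, 116, 17 and 115 counts in all (WT DMSO, WT paclitaxel, KO DMSO, KO paclitaxel). It rose 8.46-fold in WT (log2 3.08 ± 0.40, edgeR adjusted p = 2.39e-07) and 5.8-fold in KO cells (2.54 ± 0.38, edgeR adjusted p = 2.38e-06; 3.16 without KO DMSO replicate 3). COL2A1, the cartilage fibril chain, had 1, 75, 7 and 54 counts in the same order. Its WT ratio was 81.8 with a 95% counting interval of 14.2 to 3270 (edgeR adjusted p = 2.62e-07), and its rise in KO cells was 6.48-fold (log2 2.70 ± 0.57, edgeR adjusted p = 0.000195; 3.78 without KO DMSO replicate 3, which held 5 of the 7 counts). COL5A3 (0, 35, 1 and 14 counts) and COL11A1 (8, 16, 12 and 27 counts) were not tested; COL5A3 was at least 12.7-fold higher with paclitaxel in WT cells, against a floor of 3 counts over the group. In WT cells the fibroblast and osteoblast markers summed to 3.86 to 4.79 CPM in DMSO and 7.72 to 8.26 in paclitaxel. That sum moved in the same direction as these fibrillar genes. Endothelial markers also rose in WT cells, from 2.33 to 2.96 CPM in DMSO to 3.88 to 4.28 in paclitaxel. Haematopoietic markers went from 0.464 to 0.483 CPM to 1.7 to 1.95. The luminal sum rose too, while the mesenchymal sum fell. Most of the fibroblast and osteoblast sum was PDGFRB, with 3.81, 4.76 and 3.73 CPM in DMSO and 7.35, 7.74 and 7.81 in paclitaxel. The part of these markers in the result was not tested.

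In basement membrane collagen, COL4A1 (chr13:110148963-110307233, minus strand) and COL4A2 (chr13:110305812-110513209, plus strand) encode the partner chains of the widespread type IV network and are divergently transcribed from a shared region. Their RefSeq starts lie 127 bases apart, against 419 for COL4A3 and COL4A4 and 380 for COL4A5 and COL4A6.

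COL4A1 had 41.1, 42.4 and 39.7 CPM in WT cells in DMSO and 50.6, 51.7 and 50.9 in paclitaxel. KO cells had 29.5, 29.3 and 32.7 in DMSO and 29.1, 29.3 and 31.3 in paclitaxel. COL4A2 had 111, 121 and 114, then 104, 101 and 99.8, then 94.2, 94.3 and 101, and then 72.0, 70.6 and 71.7 CPM in the same order. With paclitaxel COL4A1 was thus higher in WT cells while its KO groups overlapped, and COL4A2 was lower in both genotypes; both genes were lower in KO cells.

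COL4A1 rose with paclitaxel by 0.31 ± 0.04 in WT cells (edgeR adjusted p = 3.88e-07), with -0.03 ± 0.04 in KO cells (edgeR adjusted p = 0.573). COL4A2 fell by -0.19 ± 0.03 in WT cells (edgeR adjusted p = 3.18e-05) and -0.43 ± 0.03 in KO cells (edgeR adjusted p = 5.24e-11). The direction of the KO value of COL4A1 depended on the scaling (0.09 with upper-quartile factors, 0.15 with library totals), and COL4A2 in WT cells did not pass with either of them (-0.05 and -0.03). The paclitaxel effect was lower in KO cells for both, by -0.34 ± 0.06 for COL4A1 (edgeR adjusted p = 0.000453) and -0.25 ± 0.05 for COL4A2 (edgeR adjusted p = 0.00115). The KO difference was -0.43 ± 0.04 and -0.26 ± 0.03 in DMSO (COL4A1 and COL4A2, edgeR adjusted p = 7.08e-09 and 5.56e-07) and -0.77 ± 0.04 and -0.51 ± 0.03 in paclitaxel (edgeR adjusted p = 1.15e-13 and 5.27e-12).

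Counts of COL4A1 per count of COL4A2 were 0.369, 0.35 and 0.348 in WT cells in DMSO and 0.488, 0.512 and 0.511 in paclitaxel. KO cells had 0.313, 0.31 and 0.326 in DMSO and 0.403, 0.415 and 0.436 in paclitaxel. Paclitaxel raised the ratio 1.41-fold in WT and 1.32-fold in KO cells without overlap, and in KO cells it was 0.888 times the WT ratio in DMSO and 0.83 times in paclitaxel. For this ratio, COL5A2 over COL5A1 and COL6A1 over COL6A2, each of the 12 two-sided exact permutation tests gave p = 0.1, the smallest that 3 libraries against 3 allow (Benjamini-Hochberg adjusted 0.1), and no groups compared overlapped.

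**Figure D3:**
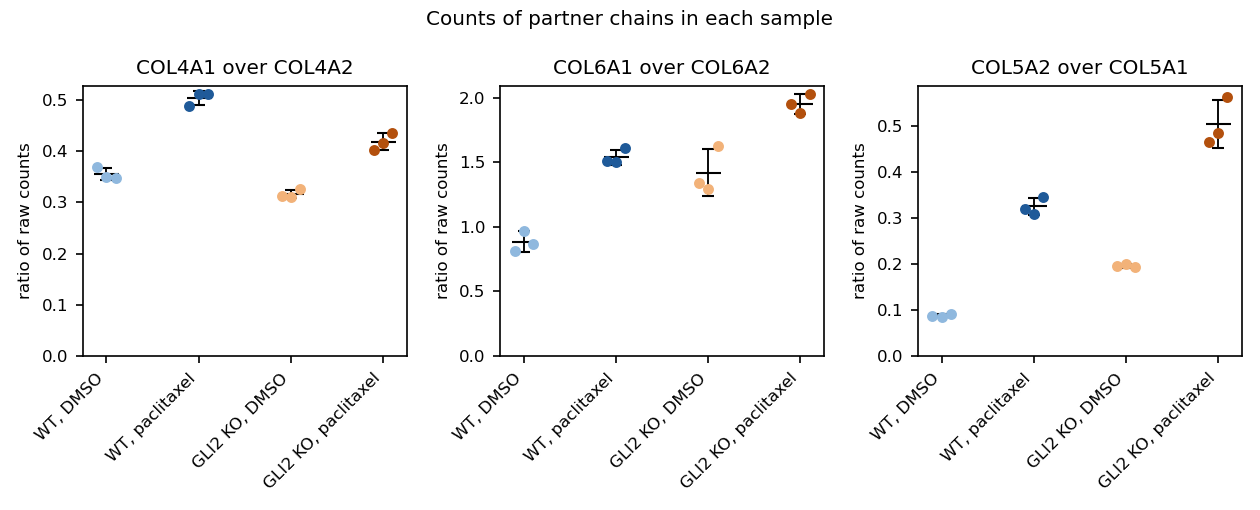
Ratio of raw counts between partner chains in each of the 12 samples (points) with the group mean and SD (bars), for COL4A1 over COL4A2, COL6A1 over COL6A2 and COL5A2 over COL5A1. All 3 ratios are higher in paclitaxel than in DMSO in both genotypes; COL4A1 over COL4A2 is lower in KO than in WT cells and the other two are higher.

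The other type IV chains form the networks of the kidney filter, smooth muscle and some epithelia. COL4A5 had 5.3, 5.31 and 5.05 CPM in WT cells in DMSO and 4.41, 4.84 and 4.2 in paclitaxel. KO cells had 3.26, 2.82 and 3.62 in DMSO and 1.81, 2.1 and 2.35 in paclitaxel, and no groups overlapped. It was lower in KO than in WT cells, by -0.69 ± 0.10 in DMSO and -1.10 ± 0.10 in paclitaxel (edgeR adjusted p = 2.28e-06 and 2.52e-09). Paclitaxel lowered it by -0.63 ± 0.11 in KO cells (edgeR adjusted p = 1.62e-05) and -0.22 ± 0.09 in WT cells (edgeR adjusted p = 0.0411). The WT adjusted p in the 12 fits without 1 library ran from 0.02 to 0.162 and was above 0.05 without any of the WT DMSO libraries or WT paclitaxel replicate 1 or 3. COL4A4 had 0.744, 0.806 and 0.813 CPM in WT cells in DMSO and 1.11, 0.976 and 0.799 in paclitaxel. KO cells had 1.7, 1.98 and 2.02 in DMSO and 1.32, 1.49 and 1.43 in paclitaxel. Every KO library of COL4A4 was above every WT library, by 1.28 ± 0.14 in DMSO and 0.56 ± 0.14 in paclitaxel (edgeR adjusted p = 5.59e-08 and 0.00202).

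Paclitaxel lowered COL4A4 in KO cells by -0.43 ± 0.13 (edgeR adjusted p = 0.00603; -0.25, not passing, with library totals). The paclitaxel effect on it differed between genotypes by -0.72 ± 0.2 (edgeR adjusted p = 0.0205), with -0.67 (adjusted p = 0.0529) without WT DMSO replicate 1 and -0.61 (0.0702) without WT paclitaxel replicate 1. COL4A3, the head-to-head partner of COL4A4, had 15, 49, 36 and 81 counts in WT DMSO, WT paclitaxel, KO DMSO and KO paclitaxel. It rose with paclitaxel by 1.66 ± 0.46 in WT cells (edgeR adjusted p = 0.00258; 2.27 without WT DMSO replicate 1) and by 0.94 ± 0.36 in KO cells (edgeR adjusted p = 0.026; 0.79 with 0.0944 without KO DMSO replicate 3 and 0.55 with 0.256 without KO paclitaxel replicate 3). Its KO difference in DMSO, 1.35 ± 0.48 (edgeR adjusted p = 0.0263), ran from 1.12 to 1.96 with adjusted p from 0.0106 to 0.101. It was above 0.05 without KO DMSO replicate 1 or 2 or WT DMSO replicate 2 or 3. COL4A6 averaged at most 0.417 CPM in a group. Its KO difference in paclitaxel of -0.79 ± 0.32 (edgeR adjusted p = 0.0454) came from overlapping groups. It had an adjusted p above 0.05 in 7 of the 12 fits without 1 library (without KO paclitaxel 1 or 2, any WT DMSO library, or WT paclitaxel 1 or 2; up to 0.227).

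Type VI collagen forms beaded filaments from COL6A1, COL6A2 and COL6A3 chains. COL6A1 (chr21:45981737-46005050, plus strand) had 35, 41.7 and 35.4 CPM in WT cells in DMSO and 46.7, 45.9 and 47.3 in paclitaxel. KO cells had 52.2, 55.6 and 75.6 in DMSO and 60.9, 59.9 and 58.4 in paclitaxel. Every KO library was above every WT library in the same medium, and KO DMSO replicate 3 stood apart at 75.6. COL6A1 was higher in KO cells in DMSO by 0.71 ± 0.13 (edgeR adjusted p = 0.0023), and 3 other contrasts did not pass: 0.36 ± 0.13 for the KO in paclitaxel (edgeR adjusted p = 0.054), 0.32 ± 0.13 for paclitaxel in WT cells (0.0615) and -0.04 ± 0.13 for paclitaxel in KO cells (0.829). Without KO DMSO replicate 3 those 3 adjusted p-values were 6.2e-06, 1.97e-05 and 0.0331, the last with a log2 fold change of 0.14 in place of -0.04. Over the 12 fits without 1 library the adjusted p of these 3 ran up to 0.129, 0.169 and 0.915. It was also below 0.05 without KO DMSO replicate 1 for the first (0.035) and the WT paclitaxel contrast (0.0404), and for the latter without WT DMSO replicate 2 (0.0438).

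COL6A2 (chr21:46098097-46132849, plus strand), the neighbour and partner of COL6A1, had 43.0, 42.9 and 40.7 CPM in WT cells in DMSO and 31.0, 30.6 and 29.4 in paclitaxel. KO cells had 38.9, 43.0 and 46.4 in DMSO and 31.2, 31.9 and 28.8 in paclitaxel. Paclitaxel lowered it by the same -0.48 ± 0.05 in WT and in KO cells (edgeR adjusted p = 5.36e-08 and 4.6e-08), and the genotypes overlapped in both media. Counts of COL6A1 per count of COL6A2 were 0.813, 0.971 and 0.869 in WT cells in DMSO and 1.51, 1.5 and 1.61 in paclitaxel. KO cells had 1.34, 1.29 and 1.63 in DMSO and 1.95, 1.88 and 2.03 in paclitaxel. The pair thus shifted towards COL6A1 with paclitaxel (1.74-fold in WT and 1.37-fold in KO cells). It lay further towards COL6A1 in KO than in WT cells (1.61-fold in DMSO and 1.27-fold in paclitaxel).

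COL6A3 (chr2:237324003-237414375, minus strand), the longest of these chains, rose with paclitaxel. It had 0.58, 0.293 and 0.474 CPM in WT cells in DMSO and 3.99, 3.92 and 3.95 in paclitaxel. KO cells had 0.718, 0.953 and 1.71 in DMSO and 3.77, 4.25 and 5.0 in paclitaxel. Paclitaxel raised it 8.61-fold in WT cells (log2 3.11 ± 0.28, edgeR adjusted p = 1.15e-06) and 3.81-fold in KO cells (1.93 ± 0.24, edgeR adjusted p = 2.1e-05). The difference of -1.17 ± 0.39 did not pass (edgeR adjusted p = 0.0743; 0.00959 without KO DMSO replicate 1, 0.0449 without KO DMSO replicate 3, and up to 0.152 without other libraries). In DMSO it was higher in KO cells by 1.31 ± 0.33 (edgeR adjusted p = 0.00721; 0.67 without KO DMSO replicate 3, KO paclitaxel replicate 3 and WT DMSO replicate 2 together), without overlap, and in paclitaxel the groups overlapped with 0.14 ± 0.2 (edgeR adjusted p = 0.621).

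COL7A1, which builds the anchoring fibrils beneath epithelia, had 124, 121 and 112 CPM in WT cells in DMSO and 141, 142 and 129 in paclitaxel. KO cells had 79.6, 81.8 and 95.8 in DMSO and 92.1, 94.8 and 89.8 in paclitaxel. Every KO library was below every WT library, by -0.47 ± 0.07 in DMSO and -0.58 ± 0.07 in paclitaxel (edgeR adjusted p = 0.000129 and 2.23e-05). Its rise with paclitaxel in WT cells was 0.21 ± 0.07 (edgeR adjusted p = 0.0156), with 0.17 (adjusted p = 0.0532), 0.19 (0.053) and 0.18 (0.0518) without WT DMSO replicate 3 and WT paclitaxel replicates 1 and 2. In KO cells the groups overlapped, with 0.11 ± 0.07 (edgeR adjusted p = 0.193; 0.19 with 0.000483 without KO DMSO replicate 3).

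COL8A1, a short-chain collagen of vessel walls and corneal basement membrane, had 73.2, 72.9 and 75.4 CPM in WT cells in DMSO and 69.0, 69.4 and 65.5 in paclitaxel. KO cells had 105, 106 and 103 in DMSO and 86.2, 85.9 and 88.4 in paclitaxel. The 4 groups did not overlap and the KO groups were the higher ones. The KO difference was 0.50 ± 0.03 in DMSO and 0.35 ± 0.03 in paclitaxel (edgeR adjusted p = 7.57e-13 and 6.66e-10). Paclitaxel lowered COL8A1 by -0.27 ± 0.03 in KO cells (edgeR adjusted p = 3.34e-08) and -0.12 ± 0.03 in WT cells (edgeR adjusted p = 0.00155), the latter turning to 0.01 with upper-quartile factors and 0.04 with library totals. The difference of -0.15 ± 0.04 (edgeR adjusted p = 0.0241) ran from -0.18 to -0.14 without 1 library in turn, with adjusted p from 0.0107 to 0.0713. It was above 0.05 without KO DMSO replicate 2, KO paclitaxel replicate 2, WT DMSO replicate 1 or 2 or WT paclitaxel replicate 1 or 2. With library totals the difference did not pass either (-0.13, edgeR adjusted p = 0.0566). Its partner COL8A2 had 2, 22, 6 and 12 counts in WT DMSO, WT paclitaxel, KO DMSO and KO paclitaxel and was not tested.

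The multiplexins COL18A1, the precursor of endostatin, and COL15A1 lie at the basement membrane zone. COL18A1 had 32.4, 37.1 and 32.5 CPM in WT cells in DMSO and 28.8, 28.0 and 28.7 in paclitaxel. KO cells had 37.3, 37.9 and 47.7 in DMSO and 34.1, 30.5 and 33.4 in paclitaxel. Paclitaxel groups were below DMSO groups in both genotypes, by -0.25 ± 0.09 in WT (edgeR adjusted p = 0.037) and -0.33 ± 0.09 in KO cells (edgeR adjusted p = 0.0101). The KO difference in DMSO was 0.27 ± 0.09 (edgeR adjusted p = 0.0384). With upper-quartile factors or library totals none of the 3 passed (adjusted p of 0.325 and 0.428 in WT cells, 0.095 and 0.203 in KO cells, and 0.0712 with either for the KO difference). The WT value also failed with a minimum count of 50 (adjusted p = 0.103), and the KO difference with no filter (0.0552) and with only the groups compared (0.132). Without 1 library the adjusted p of the WT paclitaxel value ran up to 0.109 and that of the KO value in DMSO up to 0.119. The first was above 0.05 without KO paclitaxel 1 or 3, WT DMSO 2 or any WT paclitaxel library, and the second without those KO and WT paclitaxel libraries or WT DMSO 1 or 3. In COL18A1, 16.4% of exon bases overlap SLC19A1 on the opposite strand, and with the strand setting of the counting not given in the sources used here, reads of the pair cannot be told apart. COL15A1 averaged 0.0777 ± 0.0173 CPM in WT cells in DMSO, 0.444 ± 0.0922 in WT cells in paclitaxel, 0.14 ± 0.0337 in KO cells in DMSO and 0.316 ± 0.0764 in KO cells in paclitaxel (SD, n = 3). It rose 5.71-fold in WT cells (log2 2.51 ± 0.34, edgeR adjusted p = 4.87e-07) and by 1.15 ± 0.32 in KO cells (edgeR adjusted p = 0.00296).

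Among the fibril-associated collagens, COL12A1 (chr6:75084326-75206051, minus strand), which coats type I fibrils, had the smallest adjusted p of all members between genotypes. It had 49.2, 49.4 and 48.9 CPM in WT cells in DMSO and 47.9, 49.5 and 49.1 in paclitaxel. KO cells had 143, 147 and 145 in DMSO and 112, 113 and 120 in paclitaxel. The WT groups overlapped, every KO library was above every WT library, and paclitaxel lowered the level in KO cells. It was higher in KO than in WT cells, 2.95-fold in DMSO (log2 1.56 ± 0.03, edgeR adjusted p = 2.88e-22) and 2.35-fold in paclitaxel (1.23 ± 0.03, edgeR adjusted p = 5.04e-20). The paclitaxel value was -0.33 ± 0.03 in KO cells (edgeR adjusted p = 5.95e-10) and -0.01 ± 0.03 in WT cells (edgeR adjusted p = 0.827), a difference of -0.33 ± 0.04 (edgeR adjusted p = 2.35e-05). The 250 bases before its RefSeq start are shown for that reason (chr6:75206054-75206303, minus strand, GRCh38.p14, 61.2% G or C). They are read 5′ to 3′ on the gene's strand, with a GGGCGG motif of the other strand in capitals as CCGCCC:
COL12A1 upstream: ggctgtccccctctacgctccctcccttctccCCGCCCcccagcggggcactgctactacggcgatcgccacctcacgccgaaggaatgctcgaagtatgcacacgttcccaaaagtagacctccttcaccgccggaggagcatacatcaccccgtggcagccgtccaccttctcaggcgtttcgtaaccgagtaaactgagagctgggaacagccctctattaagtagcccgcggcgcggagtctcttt

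COL16A1 (chr1:31652247-31704319, minus strand) had 2.38, 2.16 and 2.01 CPM in WT cells in DMSO and 8.2, 7.14 and 7.25 in paclitaxel. KO cells had 1.12, 1.03 and 1.11 in DMSO and 4.65, 4.8 and 4.86 in paclitaxel. The groups did not overlap, and the level was lower in KO than in WT cells and higher with paclitaxel. Paclitaxel raised it 3.44-fold in WT (log2 1.78 ± 0.09, edgeR adjusted p = 8.22e-15) and 4.39-fold in KO cells (2.13 ± 0.10, edgeR adjusted p = 3.63e-15), with a difference that did not pass (0.35 ± 0.14, edgeR adjusted p = 0.0902). The KO difference was -1.01 ± 0.11 in DMSO and -0.66 ± 0.08 in paclitaxel (edgeR adjusted p = 3.29e-08 and 1.5e-07). COL20A1 had 0.618, 0.77 and 0.632 CPM in WT cells in DMSO and 3.25, 3.24 and 2.59 in paclitaxel. KO cells had 0.513, 0.397 and 0.422 in DMSO and 2.86, 2.67 and 2.7 in paclitaxel. It rose 4.5-fold in WT and 6.19-fold in KO cells (log2 2.17 ± 0.14 and 2.63 ± 0.15, edgeR adjusted p = 6.74e-13 and 9.61e-14). Its KO difference in DMSO was -0.60 ± 0.18 (edgeR adjusted p = 0.00924; -0.50 with 0.0517 without WT DMSO replicate 2).

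Type IX collagen coats cartilage fibrils and was represented by COL9A2 and COL9A3. COL9A2 averaged 2.78 ± 0.235 CPM in WT cells in DMSO, 2.74 ± 0.0554 in WT cells in paclitaxel, 4.18 ± 0.326 in KO cells in DMSO and 3.84 ± 0.138 in KO cells in paclitaxel (SD, n = 3). It was higher in KO cells by 0.58 ± 0.09 in DMSO and 0.49 ± 0.09 in paclitaxel (edgeR adjusted p = 8.34e-06 and 7.66e-05), and paclitaxel made no difference that passed. COL9A3, at 0.118 to 0.331 CPM in the group means, rose by 1.47 ± 0.36 in KO cells (edgeR adjusted p = 0.000941) and by 0.80 ± 0.33 in WT cells (edgeR adjusted p = 0.0388). The WT value had an adjusted p of 0.0816, 0.127 and 0.21 without WT DMSO replicate 1, WT DMSO replicate 2 and WT paclitaxel replicate 3.

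COL21A1 had 4, 68, 12 and 123 counts in WT DMSO, WT paclitaxel, KO DMSO and KO paclitaxel. It rose 15.4-fold in WT (log2 3.94 ± 0.6, edgeR adjusted p = 2.91e-06) and 8.71-fold in KO cells (3.12 ± 0.45, edgeR adjusted p = 1.33e-06). The log2 value was 5.19 in WT cells without WT DMSO replicate 3 and 4.06 in KO cells without KO DMSO replicate 2. COL19A1 had 2, 8, 21 and 86 counts in that order, and differed by genotype in both media. It was 9.85-fold higher in KO cells in paclitaxel (log2 3.30 ± 0.48, edgeR adjusted p = 3.21e-06), and in DMSO the ratio was 11.0 with a 95% counting interval of 2.69 to 97.0 (edgeR adjusted p = 0.00148). Paclitaxel raised it 3.56-fold in KO cells (1.83 ± 0.4, edgeR adjusted p = 0.000324). Counting intervals cover counting error only.

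Outside these classes, COL28A1 had 10, 28, 8 and 61 counts in WT DMSO, WT paclitaxel, KO DMSO and KO paclitaxel. It rose 6.52-fold in KO cells (log2 2.70 ± 0.56, edgeR adjusted p = 0.000153) and by 1.41 ± 0.6 in WT cells (edgeR adjusted p = 0.0412). In WT cells the adjusted p was between 0.051 and 0.169 without KO paclitaxel replicate 1, WT DMSO replicate 1 or 3 or any of the WT paclitaxel libraries. COL26A1 had 2, 36, 3 and 103 counts, and its counts in DMSO all came from replicate 3 of each genotype. Its paclitaxel ratio was 19.6 in WT (95% counting interval 5.05 to 168) and 33.9 in KO cells (11.3 to 167). In paclitaxel it was higher in KO cells by 1.42 ± 0.45 (edgeR adjusted p = 0.0118), from overlapping groups, with 1.0 (adjusted p = 0.128) without KO paclitaxel replicate 3 and 1.27 (0.0582) without WT paclitaxel replicate 2.

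Since KO and WT cells were separate populations, each collagen's genotype difference was set beside that of the 25 nearest tested genes on either side. Around COL24A1 the 50 neighbours had a median of 0.60 in DMSO, with 36 higher and 0 lower, and 0.60 in paclitaxel, with 40 higher and 0 lower, while COL24A1 itself was at 2.43 and 1.90. Around COL4A1 and COL4A2 the median was -0.30 in DMSO, with 3 higher and 23 lower, and -0.24 in paclitaxel, with 0 higher and 29 lower. COL4A1 and COL4A2 themselves were at -0.43 and -0.26 in DMSO and at -0.77 and -0.51 in paclitaxel. For these 3 collagens the neighbours' median had the same sign as the gene's own value. COL4A2 lay nearer to 0 than its neighbours' median in DMSO and further from 0 in paclitaxel.

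Some other members went against their neighbours in DMSO. COL16A1 was at -1.01 in DMSO beside a median of 0.27 with 30 of 50 neighbours higher and 3 lower, COL4A5 at -0.69 beside 0.15 (23 higher, 4 lower), and COL5A2 at 0.42 beside -0.26 (4 higher, 24 lower). In paclitaxel COL5A2 was at -0.13, with the same sign as its neighbours' median of -0.26. COL12A1 and COL9A2 had the same sign as their neighbours in DMSO. Around COL12A1 the median was 0.19 (19 higher, 2 lower) against its own 1.56, and around COL9A2 0.18 (25 higher, 3 lower) against 0.58. For COL13A1, COL8A1, COL5A1, COL27A1 and COL7A1 the neighbours' median lay between -0.06 and 0.01 in DMSO. The part of these regions in the genotype differences was not tested.

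**Figure D4:**
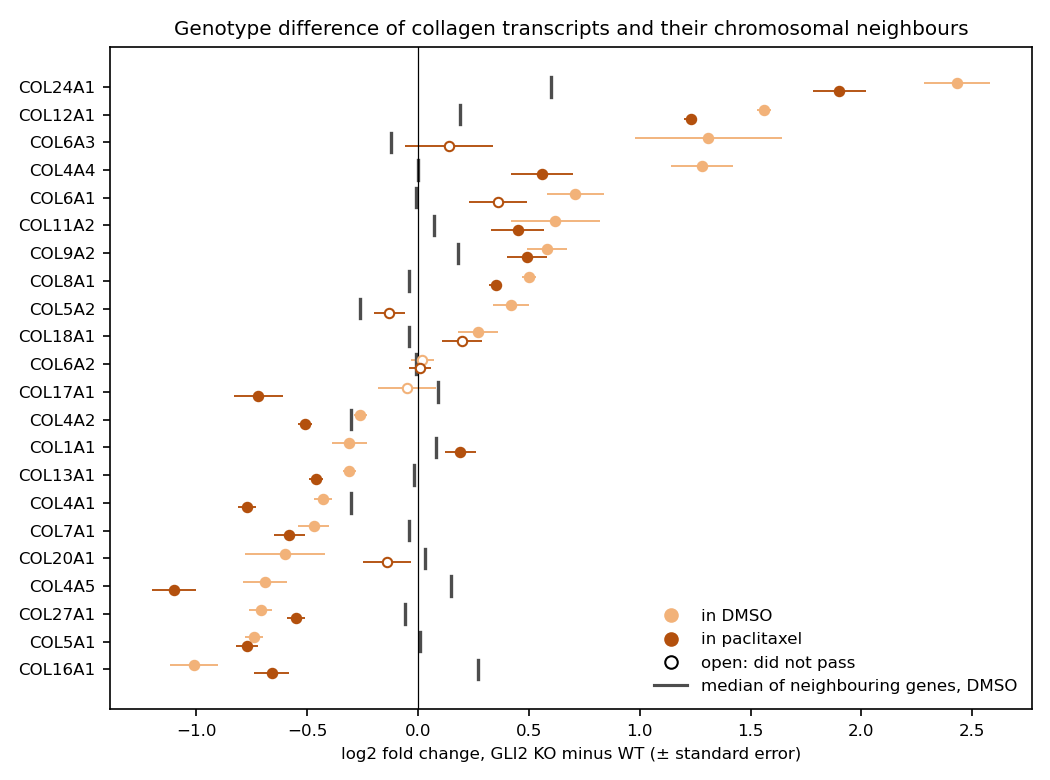
Genotype difference (log2 fold change, KO minus WT, ± SE) of 22 collagens in DMSO (light) and in paclitaxel (dark), with open points for those that did not pass an edgeR adjusted p of 0.05 and a grey bar at the median of the 50 neighbouring tested genes in DMSO. COL24A1 lies at 2.43 over a neighbour median of 0.60, while COL16A1 lies at -1.01 below a median of 0.27.

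Promoter windows of 300 bases (250 before and 50 after the RefSeq start) were held for 28 of the 36 collagens and searched on both strands beside all 27305 such windows. The GLI consensus GACCACCCA was in 0 of the 28 and in 0.249% of all windows, and the AP-1 motif TGANTCA in 0 of 28 and 7.76%. The GC-box GGGCGG was in 16 of 28 (44.6% of all windows), CCAAT in 9 (35.7%) and TATAAA in 4, namely COL6A2, COL7A1, COL13A1 and COL17A1 (12%). A motif is a match of letters, and its absence says only that these letters are not in this window.

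The genes that make, process, bind and break down collagen were read from a list of 54, of which 52 were tested. Paclitaxel raised 20 and lowered 23 of them in WT cells and raised 18 and lowered 26 in KO cells, beside 19 and 18 of the 32 collagens that rose. With upper-quartile factors or library totals, 15 rather than 23 were lower in WT cells. Of all tested genes, 34.6% were higher and 32.1% lower in WT cells, and 33.0% and 32.2% in KO cells. Most pathway genes average 1 CPM or more. Among all tested genes at that level, 25.3% were higher and 48.8% lower in WT cells, and 25.4% and 48.7% in KO cells. The background thus depends on the level of the genes, and nothing is read from the numbers of pathway genes raised or lowered. The genes listed for proline and lysine hydroxylation include CRTAP and PPIB, and not all of them are hydroxylases. Of these 13 genes, 9 were lower and 1 higher in WT cells, and 11 lower and 1 higher in KO cells. Of all tested genes averaging 1 CPM or more, 48.8% were lower in WT cells and 48.7% in KO cells. With library totals as the scale, 7 of the 13 hydroxylation genes were lower and 4 higher in each genotype. P4HB, the beta subunit of prolyl 4-hydroxylase, fell in KO cells by -0.65 ± 0.03 (edgeR adjusted p = 3.7e-14). In WT cells it went from 415, 404 and 403 CPM in DMSO to 304, 304 and 313 in paclitaxel. Of the 11 folding and export genes, 8 fell and 2 rose in each genotype, and 5 fell in each with library totals. SEC24D, a COPII coat component needed for procollagen export, was at -0.93 ± 0.05 in WT cells and -0.79 ± 0.05 in KO cells (edgeR adjusted p = 3.02e-14 and 7.26e-13). CREB3L1, a transcription factor of procollagen genes, rose by 1.55 ± 0.11 in WT and 1.21 ± 0.11 in KO cells (edgeR adjusted p = 1.09e-08 and 1.3e-07).

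Of the 8 genes of propeptide removal, 7 were higher in WT and 5 in KO cells and none was lower. The number was 4 in WT cells without WT DMSO replicate 1, and 3 in KO cells without KO DMSO replicate 2 or KO paclitaxel replicate 3. Among all tested genes with a mean below 1 CPM, where several of these lie, 50.4% rose in WT and 45.8% in KO cells, and 3.77% and 4.42% fell. TLL2, a tolloid-like protease, went from 0.22 to 4.18 CPM in WT cells (log2 4.24 ± 0.18, edgeR adjusted p = 1.16e-15) and from 0.278 to 3.35 in KO cells (3.58 ± 0.18, edgeR adjusted p = 1.48e-14). Of the 5 cross-linking enzymes, 2 rose and 2 fell in each genotype: LOXL4 rose by 1.33 ± 0.18 in WT and 1.88 ± 0.22 in KO cells (edgeR adjusted p = 9.46e-05 and 3.61e-05), and LOXL1 fell by -0.99 ± 0.08 and -1.13 ± 0.08 (edgeR adjusted p = 9.12e-10 and 4.97e-11). Of the 9 tested collagen receptors, 4 rose in each genotype, and 3 fell in WT and 4 in KO cells. In WT cells 2 rose without WT DMSO replicate 2 or 3 or WT paclitaxel replicate 1. MRC2, which takes up collagen for degradation, fell by -0.71 ± 0.05 and -0.78 ± 0.05 (edgeR adjusted p = 7.47e-12 and 1.67e-12). Of the 6 tested collagenases and related proteases, 4 rose and 1 fell in each genotype. MMP8, MMP9 and MMP13 were among the risers and averaged below 1 CPM. The shares of all tested genes at that level, given above, therefore bear on this count too. MMP8 had 0 counts in WT DMSO and 1 in KO DMSO.

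Between genotypes, 22 of the 52 pathway genes were higher and 12 lower in KO cells in DMSO, and 17 higher and 13 lower in paclitaxel. Of all tested genes, 22.0% were higher and 19.6% lower in DMSO, and 23.4% and 22.2% in paclitaxel, so the numbers lower were near the background. LOX, the main cross-linking oxidase, was higher by 0.65 ± 0.07 in DMSO and 0.62 ± 0.07 in paclitaxel (edgeR adjusted p = 6.38e-06 and 7.79e-06). LOXL4 was lower by -1.69 ± 0.22 and -1.14 ± 0.17 (edgeR adjusted p = 0.00017 and 0.000431). PLOD1, a lysyl hydroxylase, was higher by 0.57 ± 0.03 and 0.37 ± 0.03 (edgeR adjusted p = 2.29e-13 and 9.85e-10). FKBP10, a chaperone of procollagen, was lower in DMSO by -0.56 ± 0.04 (edgeR adjusted p = 2.02e-12). In paclitaxel it had 58.7, 56.9 and 53.3 CPM in KO cells and 77.8, 77.5 and 72.3 in WT cells. ADAMTS14, a procollagen N-proteinase, was lower by -4.33 ± 0.46 in DMSO (-4.96 without KO DMSO replicate 3), from 114 to 5 counts, and by -3.14 ± 0.33 in paclitaxel (edgeR adjusted p = 2.22e-08 and 1.91e-08). ITGA10, the alpha chain of a collagen-binding integrin, was higher by 2.52 ± 0.27 and 1.85 ± 0.25 (edgeR adjusted p = 6.47e-05 and 0.000312). The interstitial collagenase MMP1 was higher by 3.14 ± 0.32 in DMSO (edgeR adjusted p = 2.63e-08). In paclitaxel it had 3.94, 3.57 and 3.06 CPM in KO cells and 0.734, 0.743 and 0.444 in WT cells. The paclitaxel effect differed between genotypes for 2 of the 52 with a higher and 6 with a lower fold change in KO cells. Among these 6 were P4HA2, a prolyl 4-hydroxylase subunit, at -0.30 ± 0.06 (edgeR adjusted p = 0.00258), and COLGALT1, which adds galactose to hydroxylysine, at -0.23 ± 0.04 (edgeR adjusted p = 0.000728).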

How the data were processed

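Polyadenylated RNA of 12 libraries, 3 in each of 4 groups, was sequenced. The deposited values used here are raw counts per gene made by the authors. Per the submitters' processing notes the tools were Trim Galore 0.6.7, STAR and DESeq2 1.36.0 with build hg38, the counter, annotation and strand setting being not given in the sources used here. A second deposited table, of signal values, holds the same counts divided by 1 factor per sample (largest relative deviation 5.33e-15) and was checked but not used. Groups came from the sample titles.

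Counts were fitted with edgeR 4.0.16 (R 4.3.3; TMM, filterByExpr with a minimum count of 10, robust quasi-likelihood test, 1 mean per group over all 12 libraries, 8 residual degrees of freedom). This left 21974 genes (87.7%), over which p-values were Benjamini-Hochberg adjusted within each of 5 contrasts; a gene was called below 0.05. The SE is the absolute log2 fold change divided by the root of its F statistic. Of the 36 collagens, 32 passed the filter on low counts, which a gene can pass through its high group alone. The script was tested on simulated data. Coordinates and exon lengths are from GENCODE 29 (GRCh38; 23414 of 25049 symbols matched, 93.5%), and promoter sequences are from RefSeq. Genes without enough counts for a fold change were given as ratios of summed counts with an exact 95% interval, or against a floor of 3 counts. The alternatives were RLE, upper-quartile and library-total scaling, no filter, a minimum count of 50, DESeq2 1.42.0, limma-voom (limma 3.58.1), only the groups compared, and leaving out each library or 3 libraries together. Every collagen whose call passed is named; of the pathway genes, those with the largest called changes are. The members, lists and rules were chosen with earlier results of these data known.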

Additional observations from a re-analysis of the deposited data

Results flagged for a closer look

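For 9 collagens the effect of paclitaxel differed between genotypes by the interaction term (edgeR adjusted p below 0.05), given here as the log2 fold change in KO cells minus that in WT cells. It was -0.55 for COL5A2, -0.72 for COL4A4, -0.15 for COL8A1, -0.33 for COL12A1, -0.16 for COL13A1, -0.66 for COL17A1, -0.34 for COL4A1, -0.25 for COL4A2 and 0.50 for COL1A1. Of these, COL4A4, COL8A1 and COL13A1 had an adjusted p above 0.05 when single libraries were left out (up to 0.0702, 0.0713 and 0.105). COL8A1 also did not pass with library totals as the scale (-0.13, edgeR adjusted p = 0.0566).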

How the results depend on the processing

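No paired analysis was possible because no label says which DMSO and paclitaxel libraries belong together. The library numbers in the titles alternate between the media in KO but not in WT cells, and whether neighbours share a culture is unknown. RLE factors and limma-voom kept all 26, 27 and 22 collagen calls of the paclitaxel contrasts in WT and KO cells and of the genotype contrast in DMSO. The number of collagens lower with paclitaxel in WT cells was 3 with upper-quartile factors, 3 with library totals and 4 with a minimum count of 50, in place of 7, and the number higher in KO cells was 10 in place of 18 with that minimum, where fewer genes are tested. Without 1 library in turn, 17 to 22 collagens were higher and 5 to 7 lower in WT cells, 17 to 21 higher and 9 lower in KO cells, and 5 to 9 had a lower fold change in KO than in WT cells (5 without WT paclitaxel replicate 1). Of the pathway genes, 15 rather than 23 were lower in WT cells with upper-quartile factors or library totals, and 4 rather than 2 had a higher fold change in KO cells without KO paclitaxel replicate 3 and 6 without KO DMSO 3, KO paclitaxel 3 and WT DMSO 2 together, a set named from earlier results of these data. The direction turned for COL8A1 in WT cells (0.01 with upper-quartile factors, 0.04 with library totals), for COL12A1 in WT cells (0.12 and 0.15, 0.06 with minimum count 50, 0.01 with only the groups compared and -0.02 to 0.01 without 1 library, 0.01 without WT paclitaxel replicate 1), for COL4A1 in KO cells (0.09 and 0.15, 0.03 with minimum count 50, -0.07 to 0.02 without 1 library, 0.02 without KO DMSO replicate 3) and for COL6A1 in KO cells (0.09 and 0.14, 0.02 with minimum count 50, -0.14 to 0.14 without 1 library, 0.14 without KO DMSO replicate 3, 0.16 without those 3 libraries). MMP14, a membrane-bound collagenase, in WT cells turned to 0.01 and 0.03 with those factors. DESeq2 lost COL28A1 (adjusted p = 0.058) and COL9A3 (0.0689) in WT cells, COL4A3 in KO cells (0.0543) and COL4A6 between genotypes in paclitaxel (0.0664), and gained COL6A1 in WT cells (0.0321) and between genotypes in paclitaxel (0.0219) and the difference for COL6A3 (0.0469). The cause of these shifts was not tested. Depth limits COL2A1, COL3A1, COL5A3, COL19A1, COL21A1, COL26A1 and COL28A1, whose DMSO groups hold few counts.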
